A study of Mus musculus with 5 samples.

Results

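Rab GTPases are small membrane-bound switches that mark the compartments of the cell. In the GTP-bound form each Rab recruits tethers, motors and fusion factors to its own membrane, and in the GDP-bound form it is held in the cytosol. Guanine nucleotide exchange factors (GEFs) load a Rab with GTP, GTPase-activating proteins (GAPs) return it to the GDP form, and escort and prenylation factors put it on the membrane. In microglia, the macrophages of the brain, this traffic carries engulfed material from the phagosome to the lysosome and moves receptors and cytokines to and from the cell surface. The members described here are the rows of the deposited table whose symbol is Rab followed by a number and at most a letter and a digit. There were 58 such rows among 23420 genes, and 54 remained after rows listed at 0 in every library had been left out. They were grouped by the compartment each Rab is best known for: early endosome and phagosome, late endosome and lysosome with autophagy, recycling endosome, secretory and exocytic, ER and Golgi, and other.

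Cells positive for the myeloid surface protein CD11b and not stained by the dead-cell dye propidium iodide were sorted from mouse forebrains at postnatal day 8. For each library 2 to 4 pups of 1 genotype, males and females, were pooled. In the group labelled as Stat3 conditional knockout, here the cKO-labelled libraries (n = 3), the pups were Cx3cr1CreERT2/+ with Stat3 fl/fl and had received tamoxifen daily from postnatal day 1 to 3. In the control group (2 libraries) they were Stat3 fl/fl littermates without Cre. Both groups therefore carried floxed Stat3, and the comparison sets loss of STAT3 together with Cre and 1 disrupted copy of Cx3cr1. The inducible Cre acts in cells that express Cx3cr1, and the sample labels also give the treatment as untreated. Whether the controls had tamoxifen is not stated. The question was what loss of microglial STAT3 changes in the early postnatal brain. In libraries of sorted cells, fewer cells of a type and less RNA per cell cannot be told apart. Replicates are separate pools of pups.

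The deposited values are log2 expression relative to a reference for each gene. They show differences between libraries but not which gene is more abundant, and the depth of each library is unknown. The Stat3 value does not bear out the labels: it was 0.96, 0.074 and 0.24 in the cKO-labelled libraries and 0.078 and 0.45 in the controls (log2 difference 0.17, SE 0.42, limma adjusted p = 0.947). The value is per gene and may include exons outside the floxed part, so it checks the labels only weakly. Cx3cr1, a copy of which the Cre allele replaces, stood at 3.36, 3.34 and 3.00 in the cKO-labelled libraries against 4.32 and 3.95 in the controls, lower in each (log2 difference -0.90, SE 0.37, limma adjusted p = 0.639). Because of the Stat3 values, directions below are given for the cKO-labelled libraries and not for loss of STAT3. Control replicate 1 and control replicate 2 stood apart from the rest on the first (37.6% of variance) and the second (25.4%) principal component. All 20 microglia markers examined were tested genes, and their mean level ran from 2.68 to 2.93 in the cKO-labelled libraries and was 2.68 and 2.97 in the controls. The 10 tested monocyte markers were all higher in the cKO-labelled libraries, where their mean level ran from 0.48 to 1.16 against -0.18 and 0.15. For these, Ly6c2, Lyz1 and Ear2 were listed at 0 and Ly6c1, F10 and Vcan lay at the value of 0 reads in at least 4 of 5. For neutrophils 9 markers were tested and 7 of them were higher. Their mean level ran from 0.64 to 1.15 against 0.11 and 0.25. Elane was listed at 0, and Camp, Cxcr2, Lcn2, Mpo and Stfa1 lay at the value of 0 reads in 4 or 5 libraries. The 10 tested markers of neurons, astrocytes, oligodendrocytes and vessels (of 22) had mean levels from -1.16 to -0.75 and of -1.11 and -0.89. The part of other blood cells in the Rab values was not tested.

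Many Rab genes gave few or no reads. A gene without reads takes a value that follows 1 fixed pattern across the libraries, and this 0-read value can be recognised when at least 3 libraries lie on it. By that measure 18 of the 54 Rab genes lay at the 0-read value in 4 or 5 libraries and were not tested, and 36 were tested among 9407 genes. Another 4 (Rab25, Rab30, Rab38 and Rab42) were listed at 0 throughout. Detection differed between compartments: all 7 early endosome Rabs were tested, as were 7 of 10 recycling, 5 of 11 late endosome and lysosome, 8 of 12 ER and Golgi, 6 of 13 secretory and 3 of 5 other rows. The undetected secretory members were Rab3b, Rab3c, Rab26, Rab27b and Rab37, with Rab13 above the 0-read value only in cKO-labelled replicate 3 and Rab44 only in control replicate 1. Rab3b, Rab3c and Rab26 are known from neurons and gland cells, which release stored vesicles. Of the 36 tested members, 5 had 3 libraries at the 0-read value and 6 more had a pair of libraries spaced and placed like it, together 30.6% against 38.3% of all tested genes.

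**Figure D1:**
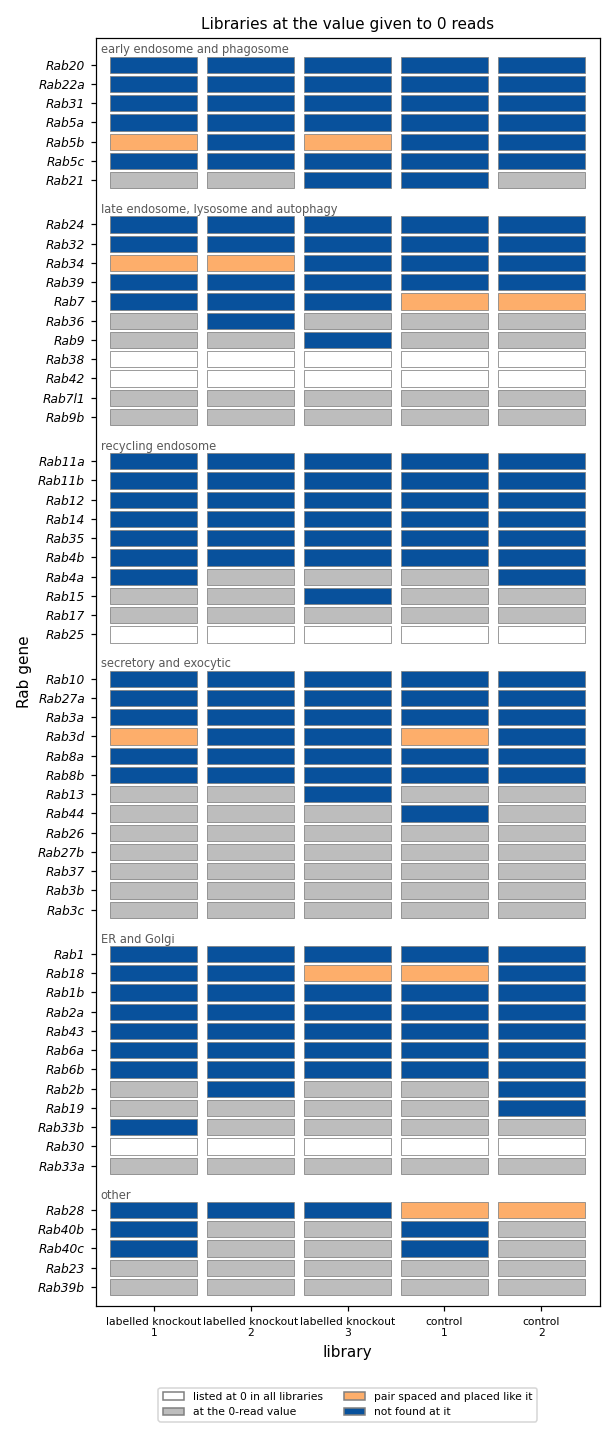
Each row is a Rab gene, grouped by compartment, and each column a library (3 cKO-labelled, 2 control). Grey cells lie at the value given to 0 reads, orange cells are a pair of libraries that lies like it, white rows are listed at 0, and blue cells were not found at it (a single library at that value cannot be recognised). All 7 early endosome members and 6 of 13 secretory rows were tested, beside 9407 of 23420 genes listed.

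No Rab gene passed the threshold (limma adjusted p under 0.05) in the comparison of the cKO-labelled libraries with the controls, and neither did any of the 9407 tested genes (percentage called: 0). The smallest adjusted p of a Rab gene was 0.646. At an unadjusted p under 0.05 there were 3 members higher, Rab7, Rab20 and Rab24, against 5.59% of all tested genes, and 0 lower, against 2.1%. All 3 cKO-labelled libraries lay above both controls for 4 of 36 members (11.1%, against 17.2% of all tested genes) and below both for 4 (11.1%, against 7.06%). The 4 above were Rab7, Rab20, Rab24 and Rab28, and the 4 below were Rab1, Rab3a, Rab5a and Rab34. Both shares lie near those of all tested genes. Of the 36 members 19 were higher and 17 lower, from a log2 difference of -0.90 to 0.99. The higher members were 52.8% of the Rab genes, against 60.0% of all tested genes. The split depended on scaling, for all genes as for the Rabs. When each library was centred on its median, which moved the differences by -0.24, 12 Rab genes were higher and 24 lower (33.3% higher, against 42.6% of all genes). After quantile normalization 16 were higher and 20 lower (44.4%, against 49.2%). The 8 members without overlap kept their sign under these scalings, but after quantile normalization Rab1 no longer lay below both controls in every cKO-labelled library. The unadjusted limma p also depended on scaling. With libraries centred on their median it was 0.18 for Rab7, 0.14 for Rab20 and 0.12 for Rab24. Rab34 and Rab3a, both lower, then had 0.021 and 0.025. After quantile normalization the limma values in the same order were 0.14, 0.058, 0.086, 0.023 and 0.025. The median difference of the members was 0.026, against 0.14 for all tested genes. That general shift of 0.14 is a property of the whole table, and differences quoted as relative below are after subtracting it.

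**Figure D2:**
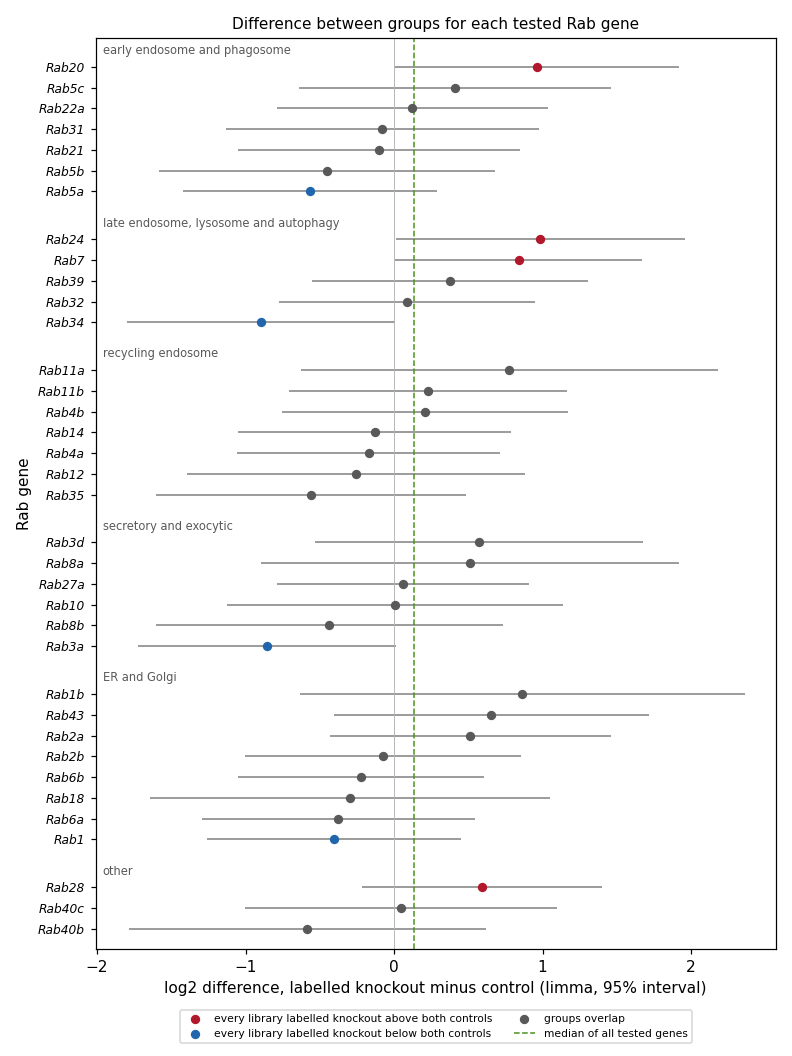
Log2 difference of the cKO-labelled libraries minus the controls for the 36 tested Rab genes, with 95% limma intervals, grouped by compartment. Red points are the 4 genes with all 3 cKO-labelled libraries above both controls, blue points the 4 genes below both, and the dashed line is the median of all tested genes at 0.14.

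Among the early endosome Rabs, Rab20 was higher and Rab5a lower in every cKO-labelled library than in both controls. Rab20 acts in the maturation of the phagosome in macrophages. It stood at 0.93, 1.27 and 1.95 in the cKO-labelled libraries, against 0.46 and 0.38 in the controls. The controls were close together, and cKO-labelled replicate 3 was the highest. Group means were 1.38 ± 0.52 (SD, n = 3) and 0.42 ± 0.059 (SD, n = 2), which is a log2 difference of 0.96 with a 95% interval from 0.0088 to 1.92 (0.83 relative; limma adjusted p = 0.646). Rab20 lies on chromosome 8 from 11453518 to 11478710 on the minus strand (GRCm38), and 25.6% of its exonic bases are also exon of the lncRNA E230013L22Rik on the other strand. The library kit does not mark strand, so reads from that stretch cannot be assigned to either gene.

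Rab5a is 1 of 3 Rab5 genes, whose products direct the fusion of early endosomes. Its values were -0.52, -0.31 and -0.45 in the cKO-labelled libraries and -0.13 and 0.41 in the controls, without overlap. The log2 difference was -0.57 (SE 0.38, limma adjusted p = 0.774), and -0.30 without control replicate 2. The other Rab5 genes did not share that order. Rab5c was higher on average (1.21 ± 0.28, n = 3, against 0.80 ± 0.87, n = 2), with control replicate 1 alone low at 0.18. Rab5b stood at 0.68 in cKO-labelled replicate 2, while replicates 1 and 3 at -0.59 and -0.64 lay like the 0-read value, and the controls stood at -0.013 and 0.55. Neither Rab5b nor Rab5c separated the groups. Rab21, Rab22a and Rab31, which act at the early endosome and on routes into it, had log2 differences of -0.10, 0.12 and -0.080. In Rab21 both cKO-labelled replicates 1 and 2 and control replicate 2 lay at the 0-read value. The 3 cKO-labelled libraries of Rab22a (0.073, 0.068 and -0.0065) were spaced as equal small counts are.

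With values as deposited, the late endosome and lysosome Rabs held 2 of the 3 members with an unadjusted limma p under 0.05. Neither of these, Rab7 and Rab24, was under it with libraries centred on their median or after quantile normalization. Rab7 drives the step from late endosome or phagosome to lysosome. Its values were 0.018, 0.41 and 0.31 in the cKO-labelled libraries and -0.57 and -0.62 in the controls. Every cKO-labelled library was thus above both controls, and the controls lay close together. Group means were 0.25 ± 0.21 (SD, n = 3) and -0.59 ± 0.034 (SD, n = 2), which is a log2 difference of 0.84 with a 95% interval from 0.0087 to 1.67 (0.71 relative; limma adjusted p = 0.646). Both controls lay like the 0-read value, as did 4.48% of tested genes, so the difference may set few reads against none. Rab7 (chromosome 6, 87999106 to 88045270, minus strand) shares 15.3% of the 40-base words of its transcripts with other genes, most with the processed pseudogene Rab7-ps1, and reads of 40 bases from them cannot be placed on 1 gene.

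Rab24, which is linked to autophagy, stood at 0.74, -0.079 and 0.42 in the cKO-labelled libraries, against -0.996 and -0.25 in the controls. Knockout-labelled replicate 2 was nearest to the controls and control replicate 1 was the lowest. The log2 difference was 0.99 with SE 0.43 (0.85 relative; limma adjusted p = 0.646), and 0.61 without control replicate 1. Rab24 (chromosome 13, 55319743 to 55321946, minus strand) has 62.4% of its exonic bases in common with exons of Prelid1 on the other strand, which makes its value uncertain. Prelid1, a mitochondrial lipid transfer gene, stood at 0.74, 0.73 and 0.93 in the cKO-labelled libraries, against 0.24 and 0.69 in the controls. Both genes were lowest in control replicate 1.

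Rab34, which places lysosomes near the nucleus and acts in cilium formation, went the other way. It stood at -1.32, -1.32 and -0.61 in the cKO-labelled libraries, against -0.22 and -0.16 in the controls. The cKO-labelled replicates 1 and 2 lay like the 0-read value, and the groups did not overlap. The log2 difference was -0.90 with a 95% interval from -1.80 to 0.0065 (-1.03 relative; limma adjusted p = 0.648). Rab32 and Rab39, which act at lysosomes, lysosome-related organelles and phagosomes of macrophages, overlapped between groups. Rab32 kept within a narrow range, from 0.77 to 1.35, in all 5 libraries. Rab39 was 0.37 higher on the log2 scale, and control replicate 1 was its lowest library at -0.73. In this compartment Rab9, Rab9b, Rab36 and Rab7l1 (now Rab29) were undetected in at least 4 libraries. The median difference of the 5 tested members was 0.24 above that of all tested genes, and 0.038 above it without control replicate 1 and 0.489 above it without control replicate 2. With 5 members it rests on the values just given.

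Because the study concerned a STAT factor, the 250 bases before each annotated start site were searched for the palindromic STAT-type word TTCNNNGAA and for the palindromic CLEAR word of lysosomal genes (capitals in the Rab5a sequence). RefSeq promoters (GRCm38.p6) were matched for 48 of 58 Rab genes. The STAT-type word was in 5 of 60 Rab promoters (8.33%, against 7.02% of all 32851 promoters), those of Rab11a, Rab15, Rab19, Rab25 and Rab34. The CLEAR word was in 2 (3.33%, against 0.24%), those of Rab5a and Rab21. Its core CACGTG, counted also inside the longer word, was in 5 (8.33%, against 6.02%), those of Rab5a, Rab20, Rab21, Rab23 and Rab27a. Each search pattern reads the same on both strands, though the bases found at NNN need not. Rab34 and Rab5a are shown because their groups did not overlap, and both were lower in the cKO-labelled libraries, but they hold different words. Capitals mark the word in the sequences, which run 5′ to 3′ on the strand of the gene up to the base before the start site.
Rab34, chr11:78188177-78188426, plus strand: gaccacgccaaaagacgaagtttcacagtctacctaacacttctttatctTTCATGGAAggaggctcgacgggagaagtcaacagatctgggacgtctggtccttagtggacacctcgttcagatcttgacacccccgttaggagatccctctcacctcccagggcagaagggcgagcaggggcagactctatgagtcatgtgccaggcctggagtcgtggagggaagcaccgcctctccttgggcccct
Rab5a, chr17:53478984-53479233, plus strand: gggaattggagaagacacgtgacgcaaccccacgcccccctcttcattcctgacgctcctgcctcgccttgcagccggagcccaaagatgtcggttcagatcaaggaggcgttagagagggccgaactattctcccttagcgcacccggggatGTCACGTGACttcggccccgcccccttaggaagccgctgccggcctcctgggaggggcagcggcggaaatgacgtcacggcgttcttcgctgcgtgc
The word in Rab34 starts 200 bases before the start site and that in Rab5a 97 bases before it. The other tested members with a word, given with 10 bases on each side, are shown for comparison.
Rab11a, STAT-type word: tacacttcgcTTCTCTGAAtgattgggga
Rab21, CLEAR word: gcccaccgcgGTCACGTGACgaggggtgtg
Rab11a and Rab21 overlapped between groups. A matching word is a description of the sequence and does not show that a factor binds there, and the windows of Rab7, Rab20 and Rab24 held neither the STAT-type nor the CLEAR word.

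None of the 7 tested recycling endosome Rabs separated the groups. Of all tested genes, 17.2% lay above and 7.06% below both controls in every cKO-labelled library. With 7 genes, a count of 0 says little about this compartment. Rab11a, the Rab of the perinuclear recycling compartment, stood at 1.13, 1.13 and 0.83 in the cKO-labelled libraries, against -0.89 and 1.40 in the controls. The controls were thus the lowest and the highest library, and the log2 difference of 0.78 (SE 0.62, limma adjusted p = 0.783) became -0.37 when control replicate 1 was left out and 1.92 when control replicate 2 was. Rab35, which returns cargo from endosomes to the plasma membrane, stood at 0.29, -0.024 and 0.72 in the cKO-labelled libraries, against 1.44 and 0.33 in the controls. Its log2 difference of -0.56 (SE 0.46, limma adjusted p = 0.787) fell to near 0 (-0.0052) without control replicate 1 and was -1.12 when control replicate 2 was left out. In both genes control replicate 1 was the odd library, low for Rab11a and high for Rab35. Rab11b, Rab4a, Rab4b, Rab12 and Rab14 had log2 differences from -0.26 to 0.23. Rab4a lay at the 0-read value in cKO-labelled replicates 2 and 3 and in control replicate 1. For Rab4b, 81.4% of the 40-base words also occur in other genes, so its value is uncertain. The gene sharing the most of them is Gm21983, a protein-coding gene annotated across Rab4b on the same strand. Rab15 and Rab17 were undetected in at least 4 libraries.

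In the secretory group Rab3a was lower in every cKO-labelled library than in both controls. Rab3a guides vesicles to the plasma membrane and is best known from nerve terminals. It stood at -0.95, -1.31 and -0.83 in the cKO-labelled libraries, against 0.029 and -0.38 in the controls. Group means were -1.03 ± 0.25 (SD, n = 3) and -0.18 ± 0.29 (SD, n = 2), which is a log2 difference of -0.86 with a 95% interval from -1.72 to 0.013 (-0.99 relative; limma adjusted p = 0.652). Of the 6 neuronal markers examined, Snap25, Syt1, Rbfox3 and Gad1 lay at the 0-read value in 4 or 5 libraries, while Tubb3 and Slc17a7 were tested genes. Tubb3 stood at -1.64, -2.04 and -1.05 in the cKO-labelled libraries against -2.04 and -1.27 in the controls, and Slc17a7 at -2.84, -2.55 and -2.94 against -2.84 and -2.68. Both overlapped between groups, and their part in the Rab3a difference was not tested. Rab3d, of the same subfamily and found in secretory cells of several kinds, stood at -0.46, 0.83 and 0.72 in the cKO-labelled libraries, against -0.46 and 0.047 in the controls. Its lowest values, in replicate 1 of each group, lay like the 0-read value, and the groups overlapped (log2 difference 0.57, SE 0.49, limma adjusted p = 0.796). The difference was 0.98 without cKO-labelled replicate 1, 0.34 without replicate 2, 0.32 without control replicate 1 and 0.33 with libraries centred on their median.

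Rab27a, which docks lysosome-related granules and exosome-bearing bodies, varied little, over a range of 0.51 log2 units. It stood at 1.13, 1.505 and 0.99 in the cKO-labelled libraries, against 1.12 and 1.17 in the controls, a log2 difference of 0.061 with a 95% interval from -0.79 to 0.91. Rab8a and Rab8b, which carry cargo from the Golgi and recycling endosome to the surface, had differences of 0.51 and -0.44. Control replicate 2 was the highest library for both, at 1.37 and 1.57. Control replicate 1 was the lowest for both, at -0.67 and 0.025. Rab10 had a difference of 0.0064 and spread from -0.73 to 0.48.

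Of the ER and Golgi Rabs, Rab1 (now Rab1a), which acts between the ER and the Golgi, was lower in every cKO-labelled library. It stood at 0.75, 1.07 and 1.26 there and at 1.302 and 1.56 in the controls. The gap between cKO-labelled replicate 3 and control replicate 1 was small, and the log2 difference was -0.40 (SE 0.38, limma adjusted p = 0.797), -0.26 without cKO-labelled replicate 1 and -0.65 with libraries centred on their median. After quantile normalization the groups overlapped, with a difference of -0.38. Its close relative Rab1b went from the highest to the lowest library over 2.48 log2 units, the widest range of all tested Rab genes. Rab1b stood at 1.10, -0.57 and 0.68 in the cKO-labelled libraries, against -1.38 and 0.46 in the controls (log2 difference 0.86, SE 0.66, limma adjusted p = 0.777). That difference was -0.058 without control replicate 1, 1.79 without control replicate 2, 0.52 without cKO-labelled replicate 1 and 1.35 without replicate 2. Rab43, which acts at the Golgi, stood at 1.40, 1.18 and 1.58 in the cKO-labelled libraries, against 1.40 and 0.069 in the controls. Control replicate 2 alone was low, and the difference of 0.66 (SE 0.47, limma adjusted p = 0.777) was -0.0096 without it, 1.32 without control replicate 1 and 0.41 with libraries centred on their median.

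For Rab43, 77.0% of the 40-base words also occur in other genes. The gene sharing the most of them is Gm45140, a protein-coding gene annotated from Rab43 into Isy1 on the same strand. The values of Isy1 (0.051, 0.45 and 0.35 against -0.54 and 0.61) did not follow those of Rab43. The other ER and Golgi members had log2 differences from -0.38 (Rab6a) to 0.51 (Rab2a). Rab6a and Rab6b, both at the Golgi and with Rab6b best known from neurons, had values below -1.3 in every library, which says only that they lie below the reference of the table. In Rab6b, 4 libraries followed the shape of the 0-read pattern, but over a wider span than the largest accepted (0.116), so it stayed among the tested genes. For Rab2b 72.8% and for Rab6a 21.7% of the 40-base words also occur in other genes, and Rab2b lay at the 0-read value in 3 libraries.

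Rab28, a cilium-linked Rab outside these compartments, was higher in every cKO-labelled library, but on few reads. It stood at 0.18, 0.17 and 0.10 in the cKO-labelled libraries, against -0.42 and -0.46 in the controls. The controls lay like the 0-read value, and the cKO-labelled libraries were spaced as equal small counts are. The log2 difference was 0.59 with SE 0.36 (limma adjusted p = 0.752), 0.35 after centring each library on its median, and 0.38 after quantile normalization. The adjusted p was 0.0659 without the filter on low values and up to 0.913 under the other settings. Rab40b and Rab40c, which recruit ubiquitin ligases, lay at the 0-read value in 3 libraries each. Rab40b stood at 0.29, -0.34 and -0.36 in the cKO-labelled libraries, against 1.26 and -0.37 in the controls (log2 difference -0.58, SE 0.53, limma adjusted p = 0.797), and leaving out control replicate 1 gave 0.23 and leaving out control replicate 2 gave -1.401. Rab23 and Rab39b were undetected in at least 4 libraries.

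**Figure D3:**
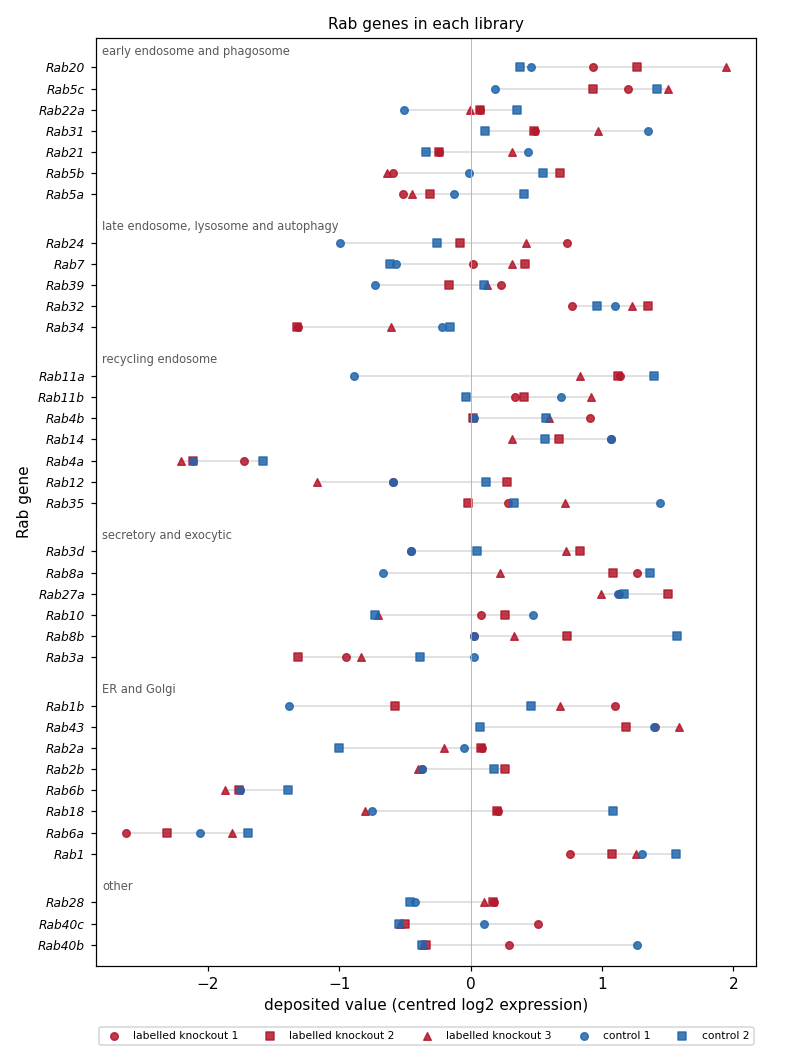
Deposited values (centred log2 expression) of the 36 tested Rab genes, grouped by compartment. Red symbols are the 3 cKO-labelled libraries and blue symbols the 2 controls, and the grey line spans all 5 libraries. In Rab11a, Rab8a, Rab8b and Rab22a control replicate 1 (blue circle) is the lowest library and control replicate 2 (blue square) the highest. In Rab10, Rab21, Rab31 and Rab40b the order of these ends is reversed.

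The median SD of a Rab gene was 0.34 over the cKO-labelled libraries (n = 3) and 0.48 over the controls (n = 2), against 0.39 and 0.41 for all tested genes. The lowest library of a member was control replicate 2 for 11 genes and control replicate 1 for 9, and the highest was control replicate 2 for 11 and control replicate 1 for 6. Control replicate 2 was thus the highest library for 30.6% of tested Rab genes, against 18.2% of all tested genes, and the lowest for 30.6%, against 35.5%. Relatives with closely similar roles could have their lowest values in different libraries: Rab5a in cKO-labelled replicate 1 and Rab5c in control replicate 1, and Rab11a in control replicate 1 and Rab11b in control replicate 2. Over the compartments, the median difference relative to all tested genes was -0.22 for early endosome, 0.24 for late endosome and lysosome, -0.27 for recycling, -0.10 for secretory, -0.28 for ER and Golgi and -0.089 for the other members. The late endosome and lysosome median was the one above 0 with all libraries.

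**Figure D4:**
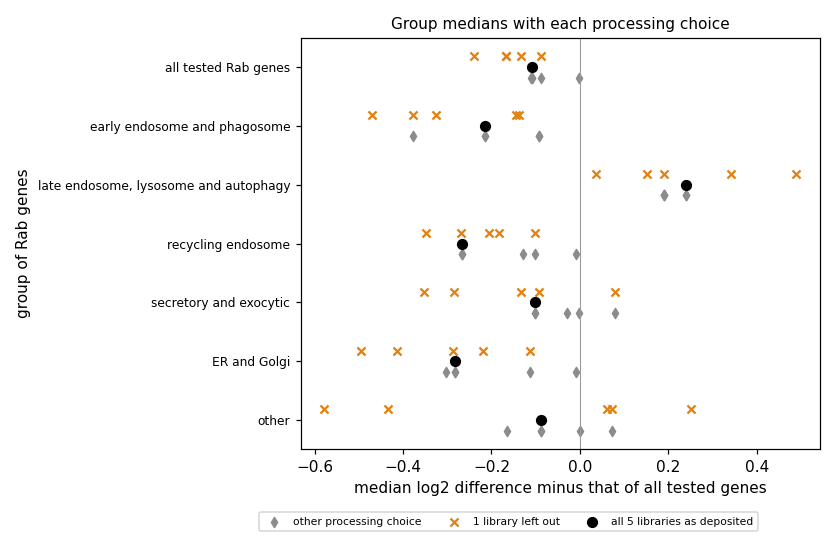
Median log2 difference of each group of Rab genes minus that of all tested genes. Black points use all 5 libraries as deposited, orange crosses leave out 1 library each, and grey diamonds are the other processing choices. The late endosome and lysosome median lies between 0.038 and 0.489 with 1 library left out, and that of all tested Rab genes between -0.24 and -0.088.

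Genes that load, release and read the Rabs were not called either. With limma 0 of 11 tested escort, prenylation and GDI genes, 0 of 36 GEFs, 0 of 29 GAPs and 0 of 58 effectors and tethers passed at an adjusted p under 0.05. At an unadjusted p under 0.05 the numbers higher and lower were 0 and 0 for the escort group, 1 and 4 for GEFs, 1 and 1 for GAPs, and 2 and 1 for effectors, where 5.59% and 2.1% of all tested genes were. The medians relative to all tested genes were -0.40 for the escort group, -0.046 for GEFs, -0.0089 for GAPs and 0.11 for effectors. In the escort group 4 were higher and 7 lower, and the genes with the smallest p were the YIP family members Yipf4, Yipf6 and Yipf3, with log2 differences of 1.06, -0.65 and -0.38. Leaving out control replicate 1 gave 0.21 for Yipf6, and leaving out control replicate 2 gave -1.51. For Yipf3 the value was -0.68 without cKO-labelled replicate 1, -0.18 without replicate 2, -0.19 without control replicate 2, -0.63 after median centring and -0.58 after quantile normalization.

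Among the GEFs, Rin3, which activates Rab5 and Rab31, was lower in every cKO-labelled library. It stood at 1.496, 0.91 and 2.09 there and at 3.03 and 2.52 in the controls (log2 difference -1.28, SE 0.45, limma adjusted p = 0.615). Gapvd1, another factor that acts on Rab5, went the other way, with 1.00, 0.25 and 0.84 in the cKO-labelled libraries and -0.93 and -0.16 in the controls (log2 difference 1.25, SE 0.43, limma adjusted p = 0.615). The TRAPP subunit Trappc6b had a log2 difference of -1.19, with cKO-labelled replicates 1 and 2 like the 0-read value. The remaining GEF genes with an unadjusted p under 0.05, Sbf1 and Hps4, were named after their values had been seen and had log2 differences of -1.02 and -1.06. Hps4 is part of the complex that activates Rab32 and Rab38, and Rab32 itself differed by 0.087.

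Of the GAPs, Tbc1d17 had a log2 difference of -1.51 (-0.99 without cKO-labelled replicate 3), Sgsm3 of 0.96 with both controls like the 0-read value, and Usp6nl of -0.62 (-0.33 without control replicate 1). Groups did not overlap for these 3 GAPs, which were picked by the smallest p. Of the 29 tested GAPs, 5 lay above both controls (17.2%, against 17.2% of all tested genes) and 4 below (13.8%, against 7.06%). The effectors with the smallest p were Ehd1, Fyco1 and Becn1. Ehd1 reshapes recycling endosome tubules and stood at 1.93, 0.95 and 1.38 in the cKO-labelled libraries, against -0.21 and 0.068 in the controls (log2 difference 1.49, SE 0.42, limma adjusted p = 0.615). Fyco1, an adaptor that links Rab7 to kinesin, had a log2 difference of 1.14 with both controls like the 0-read value, as for Rab7. Becn1, a subunit of the autophagy lipid kinase, stood at -0.35, 0.47 and -0.74 in the cKO-labelled libraries, against 0.79 and 1.21 in the controls (log2 difference -1.21, SE 0.46, limma adjusted p = 0.623).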

How the data were processed

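Per the labels, polyA RNA (integrity number over 8, 200 ng) was sequenced as 40-base reads and 286 M reads were mapped to GRCm38/mm10, of which 274 M (95%) aligned. TopHat2 2.0.13 and DESeq2 are listed in the submitters' processing notes. Which counter and gene models the authors used is not given here. The deposited values (-4.12 to 7.69) were read as log2, since they have the shape of a regularized log. That transform shrinks differences of genes with few reads.

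Genes at the 0-read value in 4 or 5 libraries (tolerance 2% of the pattern's span), genes listed at 0 and 27 date names were left out, which left 9407 genes. limma (~ group) was fitted to all of them with Benjamini-Hochberg adjustment. In simulated data of 9407 genes it found 0%, 28%, 82% and 94% of genes changed by 1, 2, 3 and 4 log2 units. A pair of libraries was called like the 0-read value when its spacing and level fell among those of undetected genes. Members with non-overlapping groups or an unadjusted p under 0.05, the 2 smallest p per compartment and 3 per regulator list are given by library. The members, lists and rules were chosen with earlier results of these data known. Alternatives were no filter, median centring, quantile normalization, trend and robust estimation, each library left out and a replicate block. Gene models come from GENCODE vM21 (58 of 58 Rab rows matched, 2 under a newer symbol). R 4.3.3, limma 3.58.1, Python 3.11.15 and pandas 2.3.3 were used.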

Additional observations from a re-analysis of the deposited data

How the results depend on the processing

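Depth is unknown, the design has 2 controls, and low values are compressed, so differences of a size seen here lie mostly below what limma could call in simulated data. No Rab gene passed under any of the 10 alternatives; the smallest adjusted p was 0.0659 (Rab28, no filter on low values). Without control replicate 1, differences turned sign for Rab11a (-0.369), Rab1b (-0.058), Rab40b (0.231) and Yipf6 (0.205), and without control replicate 2 for Rab43 (-0.0096). The cause was not tested. Without the filter, medians relative to all genes were -0.0027 for all Rab members, -0.0093 for recycling and -0.0095 for ER and Golgi. They were -0.0082 for the escort group and 0.103 for GAPs. Genes near 0 then entered, and the subtracted median of all genes was 0.012, against 0.14 with the filter. With libraries centred on their median 7 of 36 members lay below both controls, against 13.5% of all genes. The replicate numbers come from titles, and whether they pair the samples is not known. Same-numbered deviations had a correlation of -0.038 across tested genes, but with 2 controls that value cannot decide it. With the replicate block the GAP median was 0.0699.

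With 1 library left out, members above every remaining control numbered 5 to 12 of 36 and those below 5 to 12. Of all genes, 21.4% to 41.8% lay above and 9.52% to 23.4% below. Without control replicate 1, where 1 control remained, both counts were 12, against 41.8% and 22.3% of all genes. Medians relative to all genes ran from -0.240 to -0.088 for all Rab members, -0.471 to -0.139 for early endosome, 0.038 to 0.489 for late endosome, -0.348 to -0.101 for recycling, -0.354 to 0.080 for secretory, -0.495 to -0.113 for ER and Golgi, -0.578 to 0.250 for other members, -0.391 to -0.096 for the escort group, -0.296 to 0.011 for GEFs, -0.125 to 0.086 for GAPs and -0.031 to 0.128 for effectors. Differences ran from -0.369 to 1.92 for Rab11a, -0.058 to 1.79 for Rab1b, -1.401 to 0.231 for Rab40b, -1.51 to 0.205 for Yipf6 and -0.0096 to 1.32 for Rab43.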
